A study of Mus musculus with 10 samples.

Results

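The neuromuscular junction and denervation genes described here are 10 genes that encode receptor subunits, signalling proteins and regulators of the nerve-muscle synapse: *Chrna1*, *Chrnb1*, *Chrnd*, *Chrne*, *Chrng*, *Musk*, *Ncam1*, *Myog*, *Runx1* and *Gadd45a*. They were chosen by gene symbol in the platform annotation, and each has 1 probe set, so they are 10 of the 19505 genes with a probe set on the array. Signal was measured in whole gastrocnemius (GTN) muscle of male mice at postnatal day 60, on Clariom S mouse arrays with 1 mouse per array. The 5 mTKO mice carried floxed *Txnrd2* alleles and 1 copy of *ACTA1-Cre* (*Txnrd2* fl/fl; *ACTA1-Cre* +/Cre), and the 5 ctrl mice carried the same floxed alleles without Cre. Both genotypes were on a C57BL/6N background and ate standard chow. The Cre is driven by the *ACTA1* promoter, which is active in fast and slow myofibers and not in satellite cells, and whole muscle also holds Schwann cells, satellite cells and other cells beside the fibers. No group was labelled as denervated, so the arrays hold no positive control for the denervation response. Every mTKO mouse carried Cre and no ctrl mouse did, so loss of *Txnrd2* and presence of Cre cannot be told apart here.

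*Txnrd2*, which encodes the mitochondrial thioredoxin reductase removed by the Cre, had 7.51, 7.54, 7.96, 7.79 and 7.90 log2 signal in mTKO muscle, against 8.82, 9.08, 8.67, 8.47 and 8.65 in ctrl muscle, in the order of the replicate numbers that all values below follow. The highest mTKO value (7.96) lay under the lowest ctrl value (8.47), and the labels thus fit the targeted gene. The difference of *Txnrd2* was -0.998 (SE 0.16), with an unadjusted limma p of 1.6e-05 and an adjusted p of 0.118. The targeted gene itself thus did not pass the adjusted threshold of 0.05. Array medians ranged between 6.06 and 6.14 over the 10 arrays, and pairs of arrays correlated at 0.986 to 0.990 across probe sets. Olfactory receptor probe sets, taken to stand in for transcripts that are mostly absent from muscle, had a 95th percentile of 5.46. A mean signal under that level is called near background here.

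At the neuromuscular junction, acetylcholine released by the motor nerve opens receptors packed into the muscle membrane below the nerve ending. Adult receptors are built of α1, β1, δ and ε subunits, while fetal and denervated muscle uses the γ subunit in place of ε. Nerve-derived agrin binds LRP4, which switches on the kinase MuSK, and MuSK with its adaptor DOK7 clusters the receptors through rapsyn. Electrical activity of the fiber keeps these genes silent away from the synapse. When activity stops, as after nerve injury, the transcription factor myogenin drives receptor genes along the whole fiber, and NCAM, RUNX1 and GADD45A are induced as well.

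Promoter sequences are shown for 4 members: *Chrna1*, which separated the genotypes, *Chrne* and *Chrng*, the adult and fetal subunits, and *Myog*, the regulator of receptor genes. Motifs searched were the E-box (CANNTG), which myogenin and the other myogenic factors bind, and the N-box (CCGGAA), known from the *Chrne* promoter as a site of ETS factors in synaptic nuclei. Each line gives the 250 bases before the start of the gene, 5′ to 3′ on the gene's strand, from RefSeq on GRCm38.p6, with E-boxes and N-boxes in capitals. *Chrna1* lies on the minus strand with its window at chr2:73580339-73580588, *Chrne* on the minus strand at chr11:70619195-70619444, *Chrng* on the plus strand at chr1:87205561-87205810 and *Myog* on the plus strand at chr1:134289754-134290003.
Chrna1: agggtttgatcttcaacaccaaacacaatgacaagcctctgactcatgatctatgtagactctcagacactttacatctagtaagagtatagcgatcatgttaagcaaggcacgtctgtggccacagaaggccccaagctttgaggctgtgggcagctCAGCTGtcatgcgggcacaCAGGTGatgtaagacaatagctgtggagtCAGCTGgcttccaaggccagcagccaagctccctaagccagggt
Chrne: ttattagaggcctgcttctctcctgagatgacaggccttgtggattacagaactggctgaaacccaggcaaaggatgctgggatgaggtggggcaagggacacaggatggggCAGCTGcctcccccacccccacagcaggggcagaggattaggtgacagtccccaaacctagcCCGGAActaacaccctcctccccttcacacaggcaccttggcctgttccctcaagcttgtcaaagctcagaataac
Chrng: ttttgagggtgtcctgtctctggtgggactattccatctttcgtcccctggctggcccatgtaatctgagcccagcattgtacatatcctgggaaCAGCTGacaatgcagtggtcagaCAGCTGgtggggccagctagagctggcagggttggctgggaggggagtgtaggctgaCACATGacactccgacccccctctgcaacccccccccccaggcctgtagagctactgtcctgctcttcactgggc
Myog: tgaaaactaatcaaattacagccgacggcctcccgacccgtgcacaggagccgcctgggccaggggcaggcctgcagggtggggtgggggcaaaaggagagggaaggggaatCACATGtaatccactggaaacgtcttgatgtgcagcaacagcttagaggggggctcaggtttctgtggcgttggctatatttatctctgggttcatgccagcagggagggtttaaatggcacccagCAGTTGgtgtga

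Both motifs were searched on both strands in 9 windows of the 8 members that the promoter table holds (*Runx1* has 2 windows, and *Chrnd* and *Ncam1* were not searched). *Chrna1* has E-boxes that begin 92, 73 and 44 bases before the start, *Chrng* has them at 155, 132 and 75 bases, and *Myog* at 138 and 12 bases. *Chrne* has 1 E-box at 138 bases and 1 N-box at 76 bases, and *Musk* has E-boxes at 177, 100 and 68 bases. For *Musk* the distances run from the start that the promoter table uses, and RefSeq's outermost start of the gene lies inside this window, so part of it may be transcribed. An E-box was found in 8 of the 9 windows, against 66.2% of 32851 promoter windows of the same length, and its form CAGCTG, which is counted among the E-boxes too, in 4 of 9 against 13.0%. An N-box was found in 3 of 9 windows, those of *Chrne*, *Gadd45a* and one of *Runx1*, against 12.0% of all windows. These matches describe letters in a window and were not tested for binding in this muscle.

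The differences of the receptor subunits had both signs and were not tested against one another. *Chrna1* averaged higher in mTKO muscle with no overlap between genotypes, while *Chrnb1*, *Chrnd*, *Chrne* and *Chrng* each overlapped. *Chrna1*, the α1 subunit that carries the main acetylcholine binding surface of both adult and fetal receptors, had 7.75, 7.84, 7.47, 7.66 and 7.66 log2 signal in mTKO muscle, against 7.33, 7.41, 7.34, 6.94 and 6.68 in ctrl muscle. All 5 mTKO arrays lay above all 5 ctrl arrays, but the lowest mTKO array (7.47) and the highest ctrl array (7.41) were close, and ctrl replicates 4 and 5 lay well below the other ctrl arrays. The means were 7.68 ± 0.14 in mTKO and 7.14 ± 0.32 in ctrl muscle (SD, n = 5 each), a difference of 0.54 (SE 0.17, 95% interval 0.17 to 0.90), or 1.45-fold. The two-sided exact permutation test gave p = 0.00794, the smallest that 5 against 5 arrays allow, and limma gave an unadjusted p of 0.00633 and an adjusted p of 0.685 over all 22206 probe sets. Complete separation with mTKO above ctrl occurred in 0.495% of all probe sets, and with mTKO below ctrl in 0.527%. Without ctrl replicate 5 the difference of *Chrna1* was 0.42, and without ctrl replicate 2 it was 0.60.

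**Figure D1:**
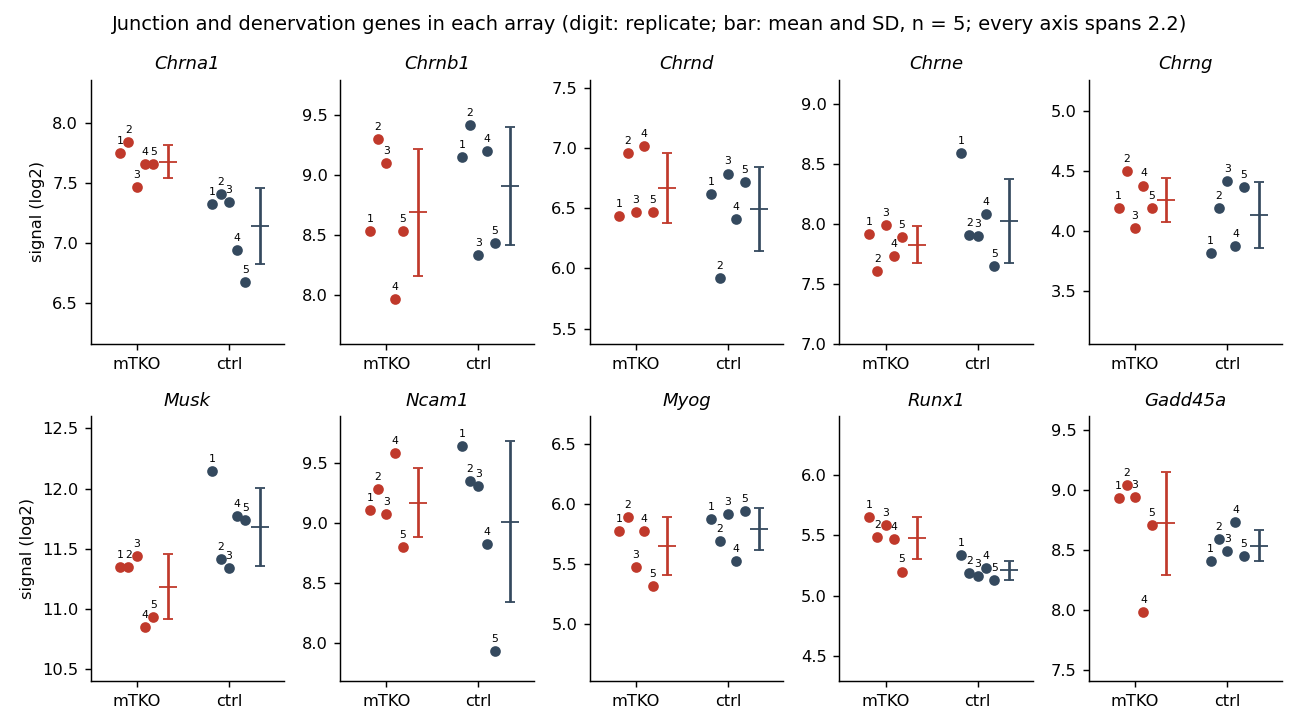
Log2 signal of the 10 genes (y axes, each spanning 2.2 log2 units) in the 5 mTKO and 5 ctrl arrays, with replicate numbers beside the points and the mean and SD of each genotype as a bar. Only *Chrna1* shows every mTKO array above every ctrl array, and the mTKO arrays of *Musk* all lie below the ctrl mean of 11.68.

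*Chrnb1*, the β1 subunit of adult and fetal receptors, varied most widely among the subunits, with 8.53, 9.30, 9.10, 7.97 and 8.53 log2 signal in mTKO muscle and 9.15, 9.41, 8.33, 9.20 and 8.43 in ctrl muscle. The genotypes overlapped almost fully, and the difference of -0.22 (SE 0.26, 95% interval -0.78 to 0.34) had an exact permutation p of 0.532. *Chrnd*, the δ subunit, had 6.44, 6.96, 6.47, 7.02 and 6.47 in mTKO muscle and 6.62, 5.92, 6.79, 6.41 and 6.72 in ctrl muscle. Here mTKO replicates 2 and 4 were the highest of the 10 arrays and ctrl replicate 2 the lowest, while the other arrays mixed. The difference of *Chrnd* was 0.18 (SE 0.19, 95% interval -0.23 to 0.59; exact permutation p = 0.405), and without ctrl replicate 2 it was 0.04.

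Of the subunits that distinguish adult from fetal receptors, only ε was measured above background. *Chrne*, the ε subunit made by nuclei below the adult nerve ending, had 7.92, 7.61, 7.99, 7.73 and 7.89 log2 signal in mTKO muscle and 8.59, 7.91, 7.90, 8.08 and 7.65 in ctrl muscle. Ctrl replicate 1 stood above all other arrays, and without it the difference of -0.20 (SE 0.18, 95% interval -0.58 to 0.18; exact permutation p = 0.310) became -0.06. *Chrng*, the fetal γ subunit that reappears after denervation, had 4.19, 4.50, 4.03, 4.38 and 4.19 in mTKO muscle and 3.82, 4.19, 4.42, 3.88 and 4.37 in ctrl muscle. All 10 values of *Chrng* lay within the range of the olfactory receptor probe sets, whose median was 4.25, so that this subunit was not measured above background in either genotype, and its difference of 0.12 (SE 0.17, 95% interval -0.23 to 0.48) cannot be read as a change of transcript. *Chrng* minus *Chrne* within an array was -3.73, -3.11, -3.96, -3.35 and -3.70 in mTKO arrays and -4.77, -3.72, -3.48, -4.20 and -3.28 in ctrl arrays. These values overlapped. Because the *Chrng* probe set was at background, they do not test for a switch to fetal receptors.

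*Musk*, the kinase that organises the postsynaptic membrane, averaged lower in mTKO muscle. It had 11.35, 11.35, 11.44, 10.85 and 10.93 log2 signal in mTKO muscle, against 12.15, 11.41, 11.34, 11.77 and 11.74 in ctrl muscle. All 5 mTKO arrays lay below the ctrl mean, with mTKO replicates 4 and 5 the lowest, but ctrl replicates 2 and 3 lay inside the mTKO range. The means were 11.18 ± 0.27 in mTKO and 11.68 ± 0.32 in ctrl muscle (SD, n = 5 each), a difference of -0.50 (SE 0.19, 95% interval -0.90 to -0.10), or 1.41-fold lower. The exact permutation test gave p = 0.0556, and limma gave an unadjusted p of 0.0175 and an adjusted p of 0.763. Without ctrl replicate 1, which had the highest *Musk* value, the difference was -0.38 and the unadjusted limma p was 0.0563. Because whole muscle was measured, fewer cells or synaptic nuclei and less RNA per cell cannot be told apart for *Musk* or for any other gene here.

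*Chrna1* and *Musk*, which both rise after denervation in rodent muscle, therefore lay on opposite sides of 0. *Chrna1* minus *Musk* within an array was -3.60, -3.51, -3.97, -3.19 and -3.27 in mTKO arrays, against -4.82, -4.00, -4.00, -4.83 and -5.06 in ctrl arrays. The mTKO values were all above the ctrl values, by 0.03 at the closest pair, and the mean difference was 1.03. The level of 1 probe set against another has no meaning of its own, and this contrast was formed with both genes' values known, so it carries no test.

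**Figure D2:**
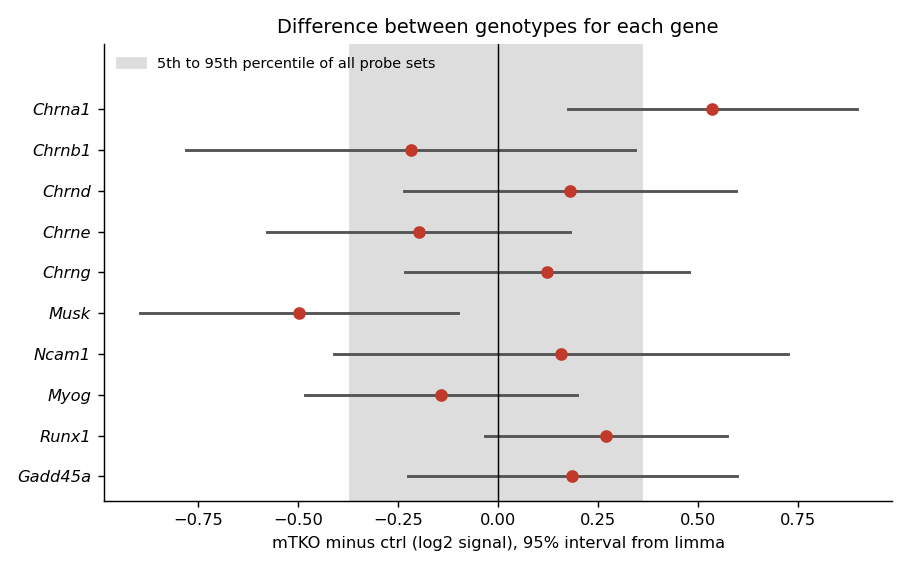
Difference between genotypes (x axis, mTKO minus ctrl, log2 signal) for each of the 10 genes, with points for the difference and lines for limma's 95% interval. The grey band, -0.37 to 0.36, holds the middle of all probe sets from the 5th to the 95th percentile, and *Chrna1* (0.54) and *Musk* (-0.50) are the genes outside it.

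*Ncam1*, an adhesion molecule that spreads along the fiber surface after denervation and is also made by nerve terminals, Schwann cells and satellite cells, had 9.11, 9.28, 9.07, 9.58 and 8.80 log2 signal in mTKO muscle and 9.64, 9.35, 9.31, 8.82 and 7.93 in ctrl muscle. The ctrl arrays held both the highest and the lowest value of the 10. The difference was 0.16 (SE 0.27, 95% interval -0.41 to 0.73; exact permutation p = 0.730), and it turned to -0.11 without ctrl replicate 5, the lowest array.

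Among the regulators, neither *Myog* nor *Gadd45a* separated the genotypes, and *Runx1* nearly did so at low signal. *Myog*, which encodes myogenin, had 5.78, 5.89, 5.48, 5.78 and 5.32 log2 signal in mTKO muscle and 5.88, 5.69, 5.92, 5.53 and 5.94 in ctrl muscle. The mean of 5.72 lay just above the background level of 5.46 and mTKO replicate 5 below it. The genotypes overlapped, with a difference of -0.14 (SE 0.16, 95% interval -0.48 to 0.20; exact permutation p = 0.310). *Runx1*, a transcription factor that preserves denervated fibers, had 5.65, 5.49, 5.59, 5.47 and 5.20 in mTKO muscle and 5.34, 5.19, 5.16, 5.23 and 5.13 in ctrl muscle. Replicates 1 to 4 of mTKO lay above every ctrl array, and mTKO replicate 5 lay among the ctrl arrays. The difference of *Runx1* was 0.27 (SE 0.14, 95% interval -0.03 to 0.57), or 1.21-fold, with an exact permutation p of 0.0238, an unadjusted limma p of 0.0774 and an adjusted p of 0.821. Its mean signal of 5.34 was near background, where a probe set can understate a change.

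*Gadd45a*, a stress protein that promotes fiber atrophy after denervation, had 8.93, 9.04, 8.94, 7.98 and 8.71 log2 signal in mTKO muscle and 8.41, 8.59, 8.49, 8.73 and 8.45 in ctrl muscle. Replicates 1, 2 and 3 of mTKO lay above every ctrl array and replicate 5 just below the highest, while mTKO replicate 4 was the lowest of all 10. The difference was 0.19 (SE 0.19, 95% interval -0.22 to 0.60; exact permutation p = 0.413). Without mTKO replicate 4 it was 0.37, with an unadjusted limma p of 0.0277 and an adjusted p of 0.810. The same array stood apart in fibrillar collagens: *Col1a1* had 11.33, 10.56, 11.85, 14.06 and 11.65 in mTKO muscle and 11.70, 12.20, 11.49, 12.38 and 11.68 in ctrl muscle. *Col1a2* (14.34) and *Col3a1* (14.19) were highest in this array too. Other fibroblast markers did not stand apart in it, with *Dcn* at 17.46 (ctrl 17.42 to 17.65) and *Lum* at 12.55 (ctrl maximum 12.49). The part of connective tissue in the value of *Gadd45a* was not tested. *Musk* was also lowest in this array, and without it the difference of *Musk* was -0.41.

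Counted over the 10 members, 6 differences were positive and 4 negative, with a median of 0.14, against 49.9% positive and a median of 0 over all probe sets. At an unadjusted limma p under 0.05, 1 member (*Chrna1*) was higher in mTKO muscle and 1 (*Musk*) lower, against 3.10% of all probe sets higher and 3.26% lower. No member passed after Benjamini-Hochberg adjustment in limma, a threshold that 0.00450% of probe sets passed (1 of 22206). The list thus had 10% of its genes past the unadjusted threshold in each direction, which is 1 gene each and too few to set against the background.

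The partners of these genes at the synapse showed small differences of both signs. Of 30 further postsynaptic genes, 26 were measured, with 19 positive and 7 negative differences and a median of 0.08. At an unadjusted limma p under 0.05, 2 were higher and 1 lower in mTKO muscle, against 3.10% and 3.26% of all probe sets. None of the 26 passed the adjusted threshold. *Dok7*, the adaptor that activates MuSK, had 7.80, 8.25, 8.28, 8.11 and 7.70 log2 signal in mTKO muscle, against 8.48, 8.60, 8.39, 8.23 and 8.32 in ctrl muscle. Its difference of -0.38 (SE 0.16, 95% interval -0.72 to -0.03; exact permutation p = 0.0238, unadjusted limma p = 0.0333, adjusted p = 0.783) had the same sign as that of *Musk*, and every mTKO array lay below the ctrl mean while the ranges still overlapped. *Dnaja3*, a mitochondrial co-chaperone that also binds MuSK at the synapse, had 11.98, 12.36, 11.91, 11.37 and 11.97 in mTKO muscle, against 11.44, 11.63, 11.10, 11.24 and 11.28 in ctrl muscle. It was higher than every ctrl array in 4 of 5 mTKO arrays, by 0.58 on average (SE 0.18; exact permutation p = 0.0238, unadjusted limma p = 0.00633, adjusted p = 0.685). *Cttn*, the actin regulator cortactin, was 0.39 higher (SE 0.16; exact permutation p = 0.0238, unadjusted limma p = 0.0273, adjusted p = 0.781), again with 4 of 5 mTKO arrays above every ctrl array. *Agrn*, *Lrp4* and *Rapsn* of the agrin pathway and *Ache*, the acetylcholinesterase of the synaptic cleft, were named after their values were seen. Unlike *Musk* and *Dok7* of that pathway, they did not pass the unadjusted threshold. Their differences were 0.13 for *Agrn*, 0.04 for *Lrp4*, 0.12 for *Rapsn* and 0.10 for *Ache*. *Ache* has 2 probe sets, of which the brighter on average was used and the other is not reported here.

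No regulator of synaptic and denervation-responsive transcription stood out. Of 19 measured genes among 21 listed, 14 had negative and 5 positive differences with a median of -0.08. None passed an unadjusted limma p of 0.05 in either direction, against 3.10% of all probe sets higher and 3.26% lower. Without ctrl replicate 1, 9 of the 19 differences were positive. *Eya1*, a transcriptional coactivator of fast fibers, had 10.76, 10.29, 11.28, 10.72 and 10.58 log2 signal in mTKO muscle and 11.57, 11.07, 11.26, 10.79 and 10.94 in ctrl muscle, a difference of -0.40 (SE 0.20, 95% interval -0.82 to 0.02). *Myf5*, a myogenic factor of satellite cells, averaged 6.20 in mTKO and 5.84 in ctrl muscle, a difference of 0.37 (SE 0.19, 95% interval -0.03 to 0.76). Those with the smallest p thus lay on opposite sides of 0. *Hdac4*, the deacetylase through which denervation releases *Myog*, had a difference of -0.01.

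A list of other genes that denervation raises in rodent muscle held 5 genes with differences of 0.55 to 1.49. Of 17 measured among 18 listed, 10 differences were positive and 7 negative with a median of 0.26. At an unadjusted limma p under 0.05, 5 were higher and 0 lower, against 3.10% and 3.26% of all probe sets. None of the 17 passed the adjusted threshold. Since earlier results of *Actc1* and others were known when the list was chosen, its count is a description. *Actc1*, the cardiac actin of fetal and regenerating fibers, had 13.65, 14.94, 15.48, 16.21 and 14.24 log2 signal in mTKO muscle, against 13.14, 14.71, 13.74, 12.56 and 12.94 in ctrl muscle, with ctrl replicates 2 and 3 inside the mTKO range. *Cdkn1a*, the cell cycle inhibitor p21, had 10.65, 10.94, 10.16, 10.43 and 10.20 in mTKO muscle, against 9.25, 9.51, 9.54, 10.42 and 9.50 in ctrl muscle, with ctrl replicate 4 inside the mTKO range. The other ctrl arrays lay below every mTKO array in both genes, and the differences were 1.49 (SE 0.44) for *Actc1* and 0.83 (SE 0.22) for *Cdkn1a*.

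*Tnnt2*, the cardiac troponin T of immature fibers, had 7.56, 7.68, 7.06, 6.80 and 7.68 log2 signal in mTKO muscle, against 6.13, 7.18, 6.81, 6.46 and 6.25 in ctrl muscle, a difference of 0.79 (SE 0.23). *Myh3*, the embryonic myosin heavy chain, had 6.43, 7.79, 7.14, 7.72 and 6.59 in mTKO muscle, against 6.10, 6.76, 6.31, 6.63 and 6.92 in ctrl muscle, a difference of 0.59 (SE 0.26). *Ankrd1*, a stretch-responsive protein of the sarcomere, averaged 9.99 ± 0.48 in mTKO and 9.43 ± 0.48 in ctrl muscle (SD, n = 5 each), a difference of 0.55 (SE 0.25). The exact permutation p was 0.0238 for *Cdkn1a*, 0.0397 for *Tnnt2* and for *Actc1*, 0.119 for *Myh3* and 0.159 for *Ankrd1*, and the adjusted limma p of these 5 genes lay between 0.588 and 0.783. Induction of *Actc1*, *Myh3* and *Tnnt2* is also known from regenerating fibers, and the arrays do not tell these settings apart. In mice older than those measured here, the paper found degenerating and centrally nucleated fibers in males with Cre alone. It attributes degeneration mainly to loss of *Txnrd2*, and proposes injury by Cre as a further source of regeneration. No array came from mice with Cre alone, so a part of Cre in these values was not tested. The ubiquitin ligases of muscle atrophy, named after their values were seen, had differences of -0.01 for *Fbxo32* and -0.10 for *Trim63*.

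**Figure D3:**
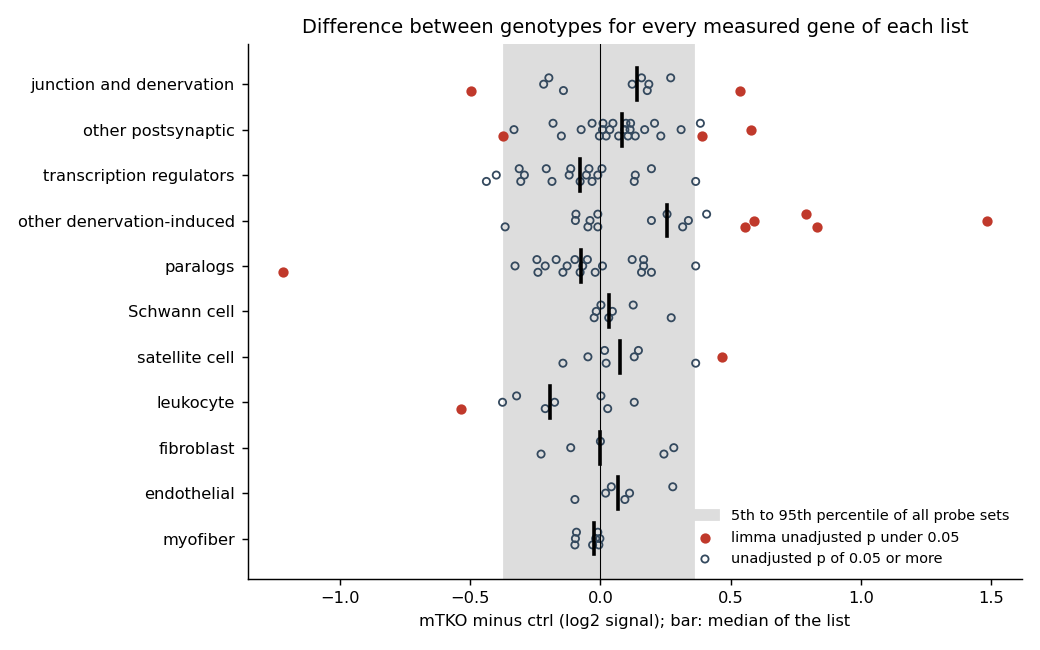
Difference between genotypes (x axis, mTKO minus ctrl, log2 signal) for every measured gene of the 10 junction and denervation genes and of each further list (y axis), with filled red points at an unadjusted limma p under 0.05 and a black bar at each list's median. The other denervation-induced genes reach to 1.49 and have the median farthest from 0 (0.26), while the paralogs, with *Gadd45g* at -1.22, reach farthest below 0.

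**Figure D4:**
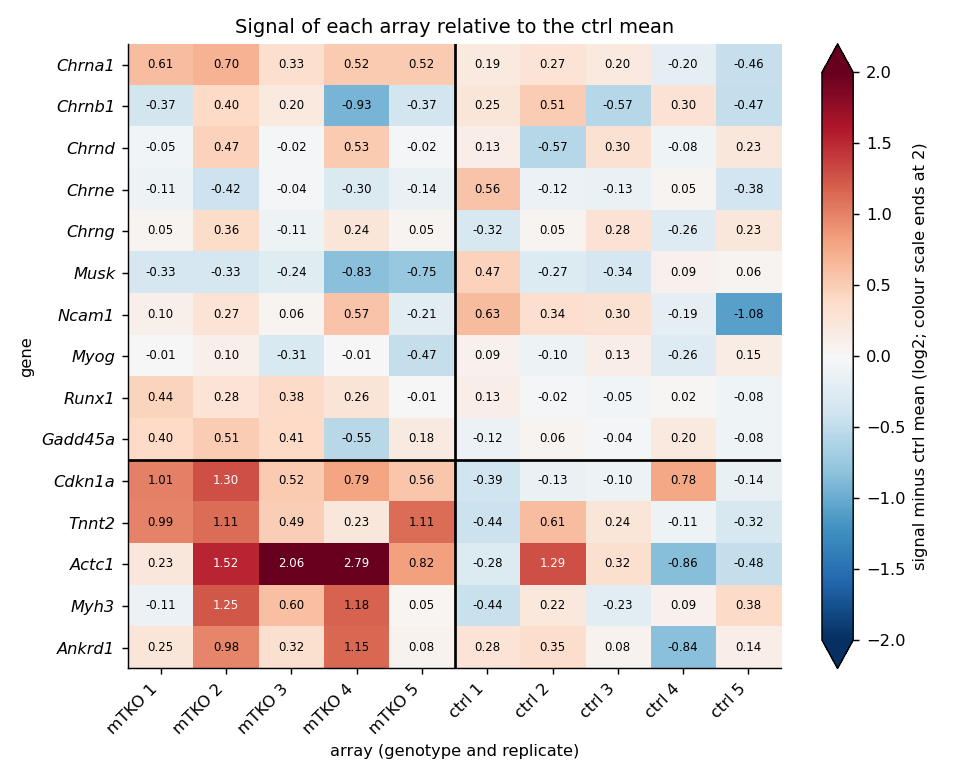
Log2 signal of each array (x axis) minus the ctrl mean, for the 10 genes above the line and for the 5 other denervation-induced genes with an unadjusted limma p under 0.05 below it (y axis). *Chrna1* is positive in every mTKO array (0.33 to 0.70) and *Musk* negative in every one (-0.83 to -0.24), and *Actc1* in mTKO replicates 3 (2.06) and 4 (2.79) runs past the end of the colour scale.

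Markers of the cells that border the synapse gave the following levels beside these values. Schwann cell markers, 7 measured of 10, had mean log2 signals of 6.63 to 7.51 over the mTKO arrays and 6.70 to 7.35 over the ctrl arrays, with 5 positive and 2 negative differences and none at an unadjusted limma p under 0.05. The defining marker *Sox10* differed by 0.27 (SE 0.22) and *S100b* by 0.13 (SE 0.18), both near background, and their part in the value of *Ncam1* was not tested. Satellite cell markers, 8 measured of 8, had 6.56 to 6.98 in mTKO and 6.56 to 6.68 in ctrl arrays. Their differences were positive for 6 and negative for 2, with a median of 0.08. Of the 8, 1 was higher and 0 lower at an unadjusted limma p under 0.05, against 3.10% and 3.26% of all probe sets. That 1 was *Pax7*, their defining transcription factor, near background with 4.82, 5.18, 5.37, 5.57 and 4.76 in mTKO muscle and 4.75, 4.63, 4.79, 4.59 and 4.60 in ctrl muscle. Its difference was 0.47 (SE 0.17; exact permutation p = 0.0159, unadjusted limma p = 0.0160, adjusted p = 0.759). Replicate 5 of mTKO lay inside the ctrl range of *Pax7* and the other 4 above it.

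Leukocyte markers, 8 measured of 10, had mean log2 signals of 6.67 to 7.23 in mTKO and 6.77 to 7.23 in ctrl arrays, with 3 positive and 5 negative differences. Of the 8, 0 were higher and 1 lower at an unadjusted limma p under 0.05, against 3.10% and 3.26% of all probe sets. The lower marker was *Adgre1*, the macrophage antigen F4/80, with a difference of -0.54 (SE 0.20; exact permutation p = 0.0476, unadjusted limma p = 0.0177, adjusted p = 0.763). Fibroblast markers, 5 measured of 6, had a median difference of 0 and endothelial markers, 6 of 6, a median of 0.07, with none at an unadjusted limma p under 0.05. The largest differences among these were 0.28 for *Lum* and 0.28 for *Kdr*, and *Dcn* was at -0.23 and *Vwf* at 0.11. Genes of adult myofibers, 8 of 8, had 18.88 to 18.93 in mTKO and 18.93 to 18.99 in ctrl arrays with differences of -0.098 to -0.002, so that the labelled tissue carried its defining markers in every array. Their signals lay close to the highest on any array, 19.91, and whether differences were compressed there was not tested. *Pvalb* (-0.10, exact permutation p = 0.0317) and *Mb* (-0.10, exact permutation p = 0.0873) had the smallest limma p of that list. In both, 4 mTKO arrays lay below every ctrl array.

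The genes whose signal followed the members most closely over the 10 arrays were found by Pearson correlation among 19504 other genes. For *Chrna1* they were *Pan2* (r = 0.934, Spearman's rho = 0.902), *Tomm7* (r = 0.926, rho = 0.848) and *Bola1* (r = 0.921, rho = 0.902). For *Musk* they were *Timm17b* (r = 0.946, rho = 0.905), *Lig1* (r = 0.945, rho = 0.815) and *Psd3* (r = 0.940, rho = 0.948). *Lig1* was near background, with a mean of 4.67. They are the highest of 19504 values over 10 points that hold both genotypes, so a difference between genotypes adds to each r, and they are given as a description with no test.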

How the data were processed

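GTN muscle of 5 mTKO and 5 ctrl mice was measured on Clariom S mouse arrays. The authors summarised scanner data with SST-RMA in Affymetrix Expression Console 1.4, which corrects background and normalizes between arrays, and deposited log2 signals with 2 decimals that were used unchanged. Muscle tissue had been kept in a preservative before RNA was purified with a column kit. No array scan date or slide was given in the sources used here. The platform annotation names 19572 of 22206 probe sets with 1 symbol each and leaves 2634 unnamed. The brightest probe set on average stood for each of 55 genes with more than 1, and all 10 members have 1.

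Genotypes were compared with limma 3.58.1 in R 4.3.3 (lmFit and eBayes, prior df 7.53, p-values adjusted by Benjamini-Hochberg over 22206 probe sets, threshold 0.05, 95% intervals) and, for single values, with a two-sided exact permutation test over all assignments of 5 and 5 arrays. Folds are 2 to the power of the log2 difference. The script was tested on simulated data. Precision is limited by the number of arrays and by the median SD within a genotype, 0.300.

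The members, the gene lists and the tests were chosen with earlier results of these data known. The text names all members and *Txnrd2*, from each list the genes with unadjusted p under 0.05 (at most 6, otherwise the 2 with the smallest p), and the 3 genes most correlated with *Chrna1* and with *Musk*. *Agrn*, *Lrp4*, *Rapsn*, *Ache*, *Hdac4*, *Fbxo32*, *Trim63*, *Col1a1*, *Col1a2* and *Col3a1* fall outside this rule and were named after their values were seen. List members that the annotation does not name were not analysed here. Promoter sequences are from RefSeq (GRCm38.p6). Python 3.11 with matplotlib 3.10.9 drew the plots. Alternatives were the t-test of the study's methods, trend and robust moderation, weighting of arrays, centring on the median, quantile normalization or cyclic loess, removal of dim probe sets, a replicate block, averaging a symbol's probe sets and leaving out each array.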

Additional observations from a re-analysis of the deposited data

How the results depend on the processing

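Over 195 combinations of a member and an alternative, 194 kept their direction and their side of the adjusted threshold, and no member passed it (lowest adjusted limma p 0.432). The exception was *Ncam1*, which ranged from -0.11 (without ctrl replicate 5) to 0.32 with each array left out. Averaging a symbol's probe sets, counted once for each of the 10 members, could not change a result, since each has 1 probe set. The t-test, trend and robust moderation, removal of dim probe sets and the replicate block leave each difference as it was. With these, only the side of the threshold could change. Over all probe sets, 1 was called higher and 0 lower at an adjusted limma p under 0.05. The count called higher was 0 with the methods' t-test after Benjamini-Hochberg adjustment and after quantile normalization, 2 with trend and robust moderation, 5 with the methods' t-test at unadjusted p and a fold above 2, 688 at unadjusted limma p, and 0 to 1 when each array was left out. The count called lower was 7 with trend and robust moderation, 2 without probe sets under the median signal, 2 without those under the olfactory 95th percentile, 8 at the methods' thresholds and 725 at unadjusted limma p, and 0 when each array was left out. Members higher at unadjusted p numbered 2 with the methods' t-test (*Runx1*, p = 0.0134 across probe sets, exact permutation p = 0.0238, beside *Chrna1*) and 1 to 2 with each array left out, where *Runx1* joined without mTKO replicate 5 (limma p = 0.0354) and *Gadd45a* without mTKO replicate 4. Members lower numbered 0 to 1, with 0 without ctrl replicate 1. The cause of these changes was not tested. The members' median lay between 0.03 and 0.18 with each array left out. Of 286 list counts and medians under the alternatives, 257 stayed close to their values and 29 moved. The postsynaptic list's median was 0.01 without mTKO replicate 4, the fibroblast list's ran from -0.27 to 0.21 with each array left out, and myofiber genes had 4 of 8 positive differences after quantile normalization. Other scalings moved the median of all probe sets by at most 0.006.

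The replicate numbers are shared by both genotypes, and the labels do not say that they pair the samples. Same-numbered arrays correlated at -0.04 to 0.16 after removal of the genotype means, and 2 of 5 arrays correlated best with their own number. No reference was computed for these correlations, so a shared litter or batch was not tested. With the replicate block, 1 probe set was called higher and 0 lower, *Chrna1* had a limma p of 0.00866 and *Musk* of 0.0252.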

Other observations

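Paralogs of the junction and denervation genes, 20 measured of 21 listed, had 7 positive and 13 negative differences with a median of -0.07, and 12 were near background. At an unadjusted limma p under 0.05, 0 were higher and 1 was lower in mTKO muscle, against 3.10% and 3.26% of all probe sets. That gene was *Gadd45g*, the relative of *Gadd45a* in the same family of stress proteins, with 10.19, 10.17, 9.75, 9.46 and 10.88 log2 signal in mTKO muscle, against 11.59, 10.81, 11.02, 12.47 and 10.66 in ctrl muscle. Every mTKO array lay below the ctrl mean of 11.31, and mTKO replicate 5 lay inside the ctrl range. The difference was -1.22 (SE 0.32, 95% interval -1.90 to -0.54), with an adjusted limma p of 0.586, while that of *Gadd45a* was 0.19 (SE 0.19).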
